A study of Mus musculus with 8 samples.

Results

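The genes of lipolysis and of the perilipin coat were examined in an ATAC-seq peak list of mouse brown adipose tissue (BAT). They were the lipases Pnpla2, Lipe and Mgll, the lipase regulators Abhd5 and G0s2, and the perilipins Plin1, Plin2, Plin3, Plin4 and Plin5, which makes 10 of the 21000 genes with a curated RefSeq mRNA. A summit, the highest point of a called peak, was assigned to a gene when it fell inside the gene or no more than 50 kb away from one of its transcription start sites (TSS). By this rule 198 of the 32173 summits in the deposited list belonged to the 10 genes, or 0.615%. ATAC-seq inserts adapters with the Tn5 transposase where DNA is not wrapped in nucleosomes. It was performed on BAT nuclei of 2 WT mice and 2 Dot1L-BKO mice, each mouse on its own. WT mice were littermates with floxed Dot1l alleles and no Cre. Dot1L-BKO mice carried the floxed alleles with Ucp1-Cre, which deletes Dot1l, the H3K79 methyltransferase, in Ucp1+ cells and leaves it in the other cell types of the tissue. All mice were 12 weeks old and on chow diet, and both genotypes had been kept at 4°C for 4 hr, so that no group at another temperature was measured. The deposited list was 1 set of summits that named all 4 libraries and gave no value for a single library, so the genotypes could not be compared, and no replicate error or test is given for any value. The name of the list sets WT libraries against Dot1L-BKO libraries, and their roles as treatment or control in the peak call were not given in the sources used here. If one genotype served as control, a score measures enrichment of one genotype over the other and not how open the site was in the tissue, and the list cannot tell these readings apart. Scores, ranks and shares below therefore describe the list. Read depth was unknown. The score of a summit is the −log10 of the q-value from MACS2, with 1.31 as the lowest and 13426 as the highest value in the list.

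Lipolysis releases fatty acids from the triglyceride of lipid droplets, and brown adipocytes burn these fatty acids for heat. Cold raises noradrenaline, which acts on beta-adrenergic receptors and protein kinase A. Perilipins coat the droplet surface and hold lipases and their coactivator away from the lipid or bring them to it, depending on phosphorylation.

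Before turning to the values, the DNA at the summits that carry the results is printed from the mm10 genome (RefSeq GRCm38.p6), on the strand of the gene. Capitals mark matches to short sequence patterns in the letters shown. The patterns are spelled out further on, where the counts are over windows around summits. The first set holds the promoter summits of the lipases, where the summits of Pnpla2 and Lipe were among the strongest of the 10 genes and that of Mgll was the weakest. The windows reach 100 bp to each side of the summit and lay at chr7:141455829-141456029 on the plus strand for Pnpla2, at chr7:25390183-25390383 on the minus strand for Lipe and at chr6:88723963-88724163 on the plus strand for Mgll.
Pnpla2 promoter: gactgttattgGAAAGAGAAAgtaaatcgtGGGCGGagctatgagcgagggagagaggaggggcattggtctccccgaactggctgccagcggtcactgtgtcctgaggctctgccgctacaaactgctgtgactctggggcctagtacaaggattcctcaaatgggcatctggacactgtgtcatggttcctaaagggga
Lipe promoter: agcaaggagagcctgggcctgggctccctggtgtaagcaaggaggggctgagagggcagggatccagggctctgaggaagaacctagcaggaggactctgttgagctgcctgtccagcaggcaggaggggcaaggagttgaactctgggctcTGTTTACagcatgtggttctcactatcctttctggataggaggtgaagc
Mgll promoter: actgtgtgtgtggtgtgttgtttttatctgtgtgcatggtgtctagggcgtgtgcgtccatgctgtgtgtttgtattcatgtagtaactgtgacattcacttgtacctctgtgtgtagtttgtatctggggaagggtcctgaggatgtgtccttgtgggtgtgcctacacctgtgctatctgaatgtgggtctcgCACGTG
The regulators are shown next, as the pair that switches Pnpla2 on and off. The summit of Abhd5 lay in the 5′ UTR, so a stretch of equal length that ends before the TSS is shown, at chr9:122351415-122351615 on the plus strand. Its capitals lie outside the summit window and are not among the counted matches. The window of G0s2 was at chr1:193273496-193273696 on the minus strand.
Abhd5 promoter: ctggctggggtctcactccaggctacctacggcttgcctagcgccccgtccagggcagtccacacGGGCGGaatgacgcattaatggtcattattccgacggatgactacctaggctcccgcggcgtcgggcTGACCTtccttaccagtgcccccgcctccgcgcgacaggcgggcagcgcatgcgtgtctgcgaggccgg
G0s2 promoter: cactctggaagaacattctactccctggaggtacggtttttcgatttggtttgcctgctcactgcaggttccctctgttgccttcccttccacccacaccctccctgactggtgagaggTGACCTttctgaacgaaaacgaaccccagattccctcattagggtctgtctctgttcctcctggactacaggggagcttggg
The promoter windows of the perilipins follow for the 4 genes that had one. Of the window of Plin1 the 104 bases outside the UTR are shown, at chr7:79732777-79732880. For Plin2 the stretch before the TSS is shown, at chr4:86670060-86670260. The windows of Plin3 at chr17:56291196-56291396 and of Plin5 at chr17:56117300-56117500 are whole, and all 4 are on the minus strand.
Plin1 promoter: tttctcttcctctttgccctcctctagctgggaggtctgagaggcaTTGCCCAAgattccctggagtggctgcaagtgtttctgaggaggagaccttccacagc
Plin2 promoter: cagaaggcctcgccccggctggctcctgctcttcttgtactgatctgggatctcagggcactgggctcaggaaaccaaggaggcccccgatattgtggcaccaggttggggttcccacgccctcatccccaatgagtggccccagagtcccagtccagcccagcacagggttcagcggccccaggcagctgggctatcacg
Plin3 promoter: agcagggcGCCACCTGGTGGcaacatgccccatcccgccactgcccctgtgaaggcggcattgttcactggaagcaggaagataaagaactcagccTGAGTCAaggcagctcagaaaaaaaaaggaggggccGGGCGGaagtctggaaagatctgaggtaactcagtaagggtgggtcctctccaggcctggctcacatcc
Plin5 promoter: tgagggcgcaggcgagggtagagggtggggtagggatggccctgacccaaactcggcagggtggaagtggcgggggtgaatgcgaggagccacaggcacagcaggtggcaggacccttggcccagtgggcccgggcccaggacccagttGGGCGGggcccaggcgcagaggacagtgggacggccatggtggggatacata
The last set holds, for Mgll, Plin1 and Plin4, the strongest summit among those with the gene's TSS as the nearest TSS. All 3 lay more than 1 kb from any TSS. They were at chr6:88732238-88732438 in an intron of Mgll on the plus strand, at chr7:79734656-79734856 upstream of Plin1 on the minus strand and at chr17:56104677-56104877 in a coding exon of Plin4 on the minus strand.
Mgll strongest summit: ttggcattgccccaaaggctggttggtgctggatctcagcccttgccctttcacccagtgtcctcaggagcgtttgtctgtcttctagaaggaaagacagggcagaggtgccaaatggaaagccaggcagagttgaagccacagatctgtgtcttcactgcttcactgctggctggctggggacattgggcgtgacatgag
Plin1 strongest summit: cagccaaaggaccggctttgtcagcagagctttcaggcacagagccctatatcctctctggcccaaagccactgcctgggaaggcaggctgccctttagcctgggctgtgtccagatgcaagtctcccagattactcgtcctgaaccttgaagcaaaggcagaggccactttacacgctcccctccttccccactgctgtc
Plin4 strongest summit: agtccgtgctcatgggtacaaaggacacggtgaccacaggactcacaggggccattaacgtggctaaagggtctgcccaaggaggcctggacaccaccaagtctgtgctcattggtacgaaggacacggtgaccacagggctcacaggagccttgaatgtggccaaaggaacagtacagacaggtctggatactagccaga

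All 10 genes had at least 1 summit under the rule, a property shared with 72.5% of all genes. A promoter summit, one within 1 kb of a TSS, was found at 9 of the 10 genes, beside 45.2% of all genes. The gene without one was Plin4. At 7 of the 10 genes the promoter summit had a score of at least 10, beside 23.5% of all genes. The 3 genes outside this count were Plin4, Mgll with a promoter score of 5.55 and G0s2 with 6.53. Every one of the 10 gene bodies held a summit, beside 39.7% of all genes. Since there was 1 list, these shares describe the list and have no error from replicates.

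The count under the rule ran from 3 summits at Abhd5 to 37 at Pnpla2, but it took in many summits nearer to the TSS of another gene. Of the 198 summits, 76 or 38.4% had a TSS of one of the 10 genes as the nearest TSS, and these are called the genes' own summits below. The other 122 summits were nearer to the TSS of another gene, and some of these lay inside one of the 10 genes, such as 16 in Mgll. Plin4 and Plin5 shared 27 summits, which is why the counts per gene sum to 225. The median score was 4.61 for the 198 summits, 6.01 for the 76 own summits and 5.0 for the whole list. A score of at least 10 was reached by 19 of the 76 own summits and by 23.5% of all summits. Of the 19, 8 lay within 1 kb of the TSS and 11 farther away. Among all 76, 12 or 15.8% lay within 1 kb of the TSS, beside 32.2% of the whole list within 1 kb of some gene's TSS. Introns held 37 own summits, coding exons 7 and 5′ UTRs 3, while 29 lay outside the gene body. The map of summits by gene shows these placements.

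**Figure D1:**
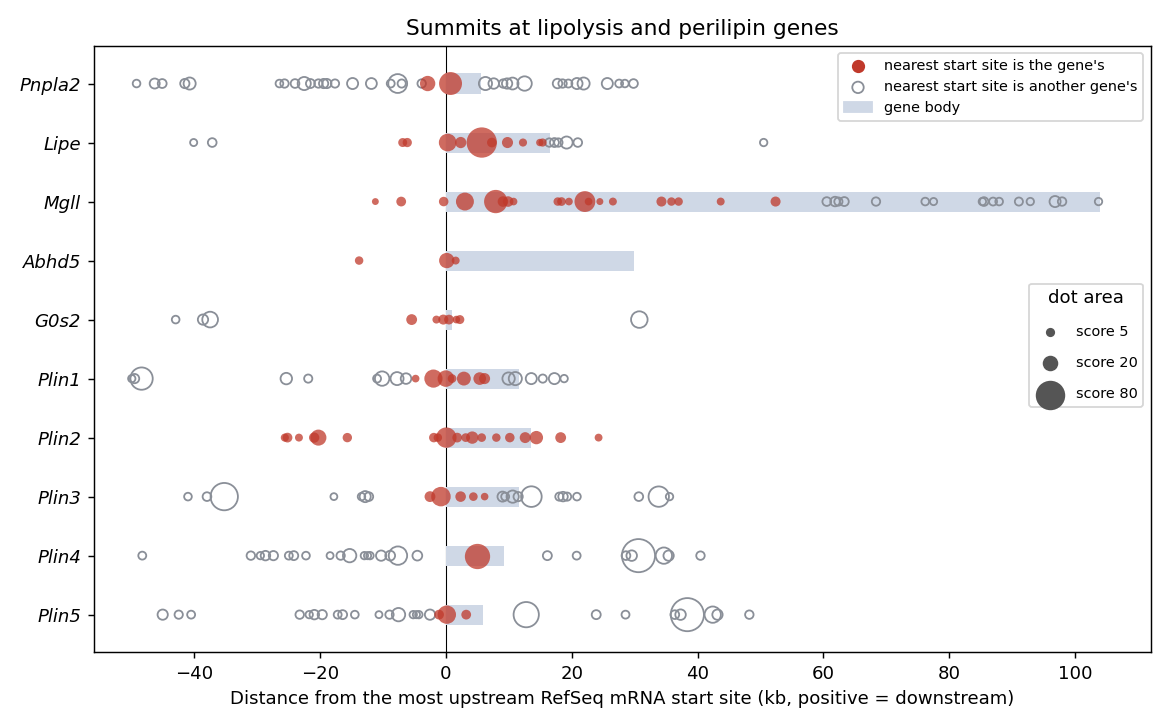
Each row is a gene, the horizontal axis is the distance in kb from its most upstream TSS in the direction of transcription, and the area of a dot grows with the score (−log10 q). Red dots are own summits, open grey dots are nearer to the TSS of another gene, and the bar is the gene body. All 19 dots of Plin2 are red, whereas 2 of the 37 dots of Pnpla2 and 1 of the 27 dots of Plin4 are.

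Among the lipases, the strongest own summits of Lipe and Pnpla2 lay within 1 kb of a TSS, both in intron 1 of an mRNA of the gene, whereas those of Mgll lay farther inside the gene. This placement depends on the promoter window, since Pnpla2 had no promoter summit with a window of 500 bp and Mgll had a promoter score of 27.7 with 5 kb. Pnpla2 encodes ATGL, which removes the first fatty acid from triglyceride, and lies at chr7:141455188-141460743 on the plus strand. Its promoter summit had a score of 47.3 and lay at +741 bp in intron 1, at position 141455929. It ranked 635 in the list, and 94.0% of the 9485 genes with a promoter summit had a lower score. Pnpla2 had 1 further own summit, with a score of 19.4 at −2898 bp. The other 35 summits in its window were nearer to 9 other genes, most often to Slc25a22, a mitochondrial glutamate carrier gene, with 7. By the count under the rule Pnpla2 stood above 99.6% of all genes, and by summits with the gene's TSS as the nearest at any distance above 69.7%.

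Lipe encodes hormone-sensitive lipase, which hydrolyzes diglyceride, and lies at chr7:25379527-25395987 on the minus strand. It had the highest score among the own summits of the 10 genes, 84.8, which ranked 106 in the list and was above the promoter scores of 99.2% of the genes that had one. The gene has 2 TSSs 5875 bp apart, and each had a summit. The score of 84.8 belonged to the downstream TSS, which starts the mRNA for the protein of 759 residues, and lay at −171 bp from it, inside intron 1 of the longer mRNA. The upstream TSS, which starts the mRNA for 802 residues, had a score of 26.9 at +290 bp in the 5′ UTR. The remaining 8 own summits of Lipe were weaker, the strongest at 9.0 between the 2 TSSs, at +2362 bp from the upstream one. The most frequent nearest gene for the other summits was Cnfn, which encodes cornifelin, with 6 of them.

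Mgll encodes monoglyceride lipase, which completes the breakdown to glycerol, and has the longest body of the 10 genes, 104 kb at chr6:88724412-88828360 on the plus strand. Its promoter summit scored 5.55 at −349 bp, and 22.9% of the genes with a promoter summit scored lower. Inside the gene it had 33 summits, and 3 of its own summits there were above 20, at 27.7 (+2736 bp), 49.0 (+7634 bp) and 38.4 (+21806 bp). The score of 49.0 ranked 606 in the list, close to the promoter summit of Pnpla2. Of the 33 body summits 32 were intronic, and 16 in the downstream part of the gene were nearer to the TSS of Abtb1, a neighboring gene, with scores up to 8.65. Per kb, the body of Mgll had 0.317 summits, compared with 0.18 for Pnpla2 and 0.547 for Lipe.

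**Figure D2:**
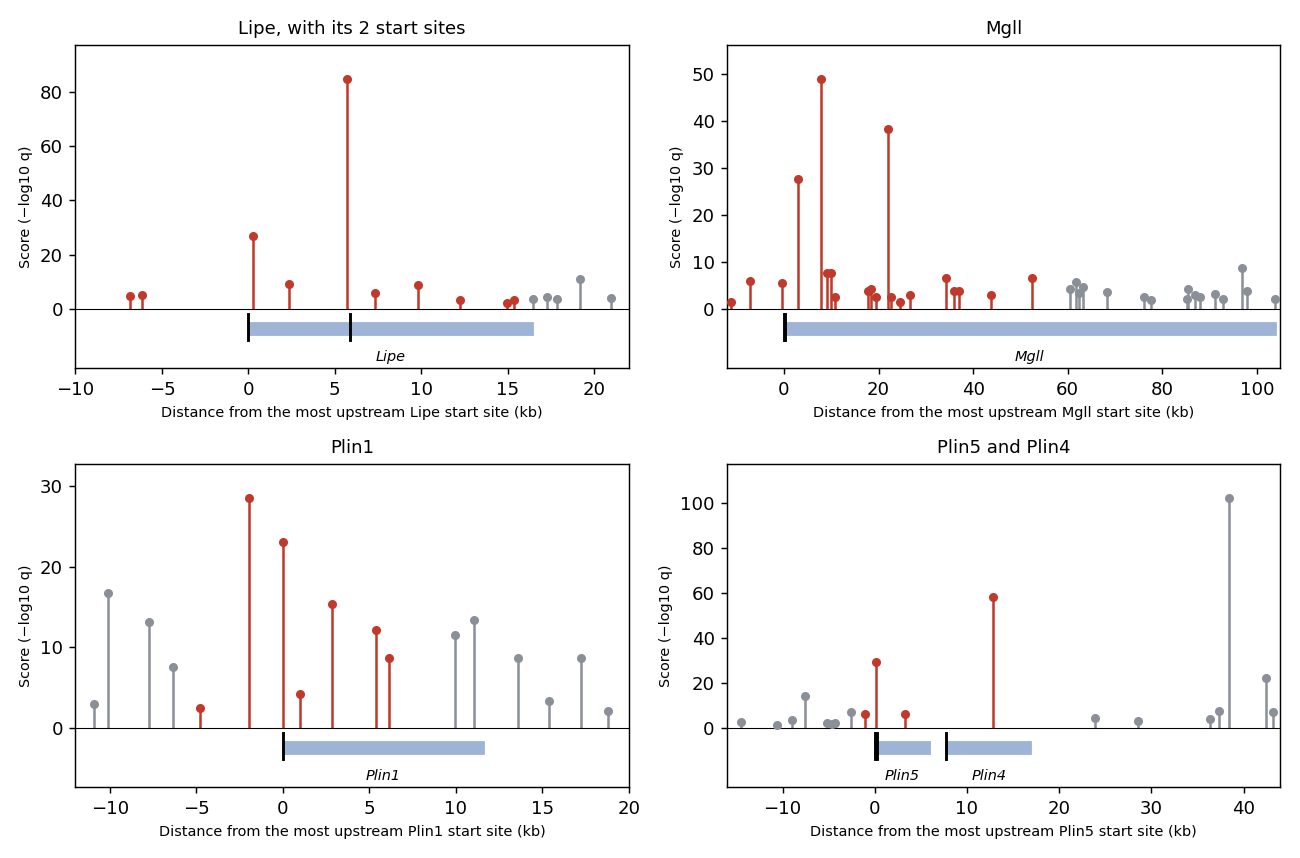
Each stem is a summit with its score (−log10 q) on the vertical axis against the distance from the TSS in kb, for Lipe, Mgll, Plin1 and the neighboring Plin5 and Plin4, with gene bodies as bars and TSSs as ticks, and red stems for own summits and grey for the others. The tallest own stem stands near a TSS at Lipe (84.8), and inside the gene at Mgll (49.0) and Plin4 (58.1).

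The 2 regulators of Pnpla2 had promoter scores of 19.4 (Abhd5) and 6.53 (G0s2), which cannot be said to differ without a spread over libraries. Abhd5, the coactivator of ATGL also known as CGI-58, lies at chr9:122351616-122381523 on the plus strand. It had a promoter score of 19.4 at +140 bp in the 5′ UTR, higher than in 72.0% of genes with a promoter summit. It had the fewest summits under the rule, 3, and the other 2 scored 3.75 at −13792 bp and 2.92 at +1560 bp. All 3 were its own. The window around its promoter summit had a GC content of 73.6% and 30 CpG dinucleotides. The median over the own summits within 1 kb of a TSS was 58.2% and 7, and over all summits within 1 kb of a TSS 62.2% and 14.

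G0s2, the inhibitor of ATGL, is a short gene of 1.03 kb at chr1:193272160-193273188 on the minus strand. It had 2 promoter summits with scores of 6.53 at −408 bp and 6.02 at +495 bp, the latter in the coding exon. The higher one was above 30.5% of the genes with a promoter summit. Its strongest own summit scored 8.12 at −5438 bp, so that none of its 6 own summits reached 10. Lamb3, a laminin chain gene, was the nearest gene for the most other summits, 3.

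The perilipins with a promoter summit had scores between 23.1 and 36.7, a narrower range than the 5.55 to 84.8 of the lipases. Plin2, the perilipin found on droplets in many cell types, had the highest of these, 36.7 at +72 bp in the 5′ UTR, above 89.8% of the genes with a promoter summit. It lies at chr4:86656565-86670059 on the minus strand, and all 19 summits in its window were its own. By summits nearest to the gene at any distance, 99.6% of all genes had fewer than Plin2. Its body held 8 summits, and 3 lay past its 3′ end and 8 upstream of the TSS. A group of 6 stood apart upstream, between −15665 and −25597 bp, with 21.6 at −20264 bp as the strongest and the other 5 between 2.92 and 7.05. Further own summits above 10 were 14.0 at +14383 bp, just past the 3′ end, and 11.5 at +4192 bp in an intron.

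Plin1, the perilipin of adipocytes that binds Abhd5 in the resting cell, lies at chr7:79721164-79732776 on the minus strand. Its promoter summit lay at −4 bp with a score of 23.1, above 77.6% of the genes with a promoter summit. A stronger own summit, 28.5, lay at −1980 bp. Within the gene there were 6 summits, with own summits of 15.4 at +2859 bp in a coding exon, 12.2 at +5378 bp in an intron and 8.65 at +6149 bp in a coding exon. In all, 4 of the 7 own summits of Plin1 scored at least 10. The neighboring Kif7, a kinesin gene, was the nearest gene for 6 of the other summits. These included 13.4 and 11.5, which lay within Plin1 itself, in its coding exons 9 and 8.

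Plin3, which coats nascent droplets in many tissues, lies at chr17:56278962-56290511 on the minus strand. Its promoter summit scored 33.3 at −785 bp, above 87.7% of the genes with one. Its other 4 own summits scored between 2.42 and 8.12. Ticam1, the adaptor gene of Toll-like receptor signaling, was the nearest gene for 9 of the 24 summits in the window of Plin3.

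Plin5 and Plin4 lie next to each other on the minus strand of chromosome 17, with 1818 bp between their bodies, yet their summits were placed differently. Plin5, the perilipin of oxidative tissues that ties droplets to mitochondria, lies at chr17:56111601-56117548 and has 2 TSSs 250 bp apart. Its promoter summit of 29.3 lay between them, at −102 bp from one and +148 bp from the other, and was above 84.6% of the genes with a promoter summit. Its other 2 own summits both scored 6.02, at +2981 bp in an intron and at −1084 bp. Plin4, the longest perilipin protein at 1601 residues, lies at chr17:56100587-56109782. The summit closest to its TSS was that intronic summit of Plin5, at −4535 bp from the TSS of Plin4. Its own summit, the single one, scored 58.1 and ranked 364 in the list, at +5005 bp within a coding exon. This was the second highest score among the 76 own summits. In the windows of both genes, Sema6b, a semaphorin gene, was the nearest gene for the most other summits, 8.

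The Plin4 summit lay in repeated DNA. The printed window had a copy of its whole length with 99.5% identity 990 bp away, at chr17:56105667-56105867, and a coding exon of 3958 bp in 1 of the 2 mRNAs of Plin4 held both. In the other mRNA the exon with the summit, 2085 bp long, ended before the copy. Of the 152 stretches of 50 bases within the window, 102 or 67.1% occurred again within 10 kb. The other 75 own summits had no such recurring stretch. Reads were 50 bases long, and how reads with several matches were handled was not given in the sources used here. The part of the repeat in the score of 58.1 was not tested.

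**Figure D3:**
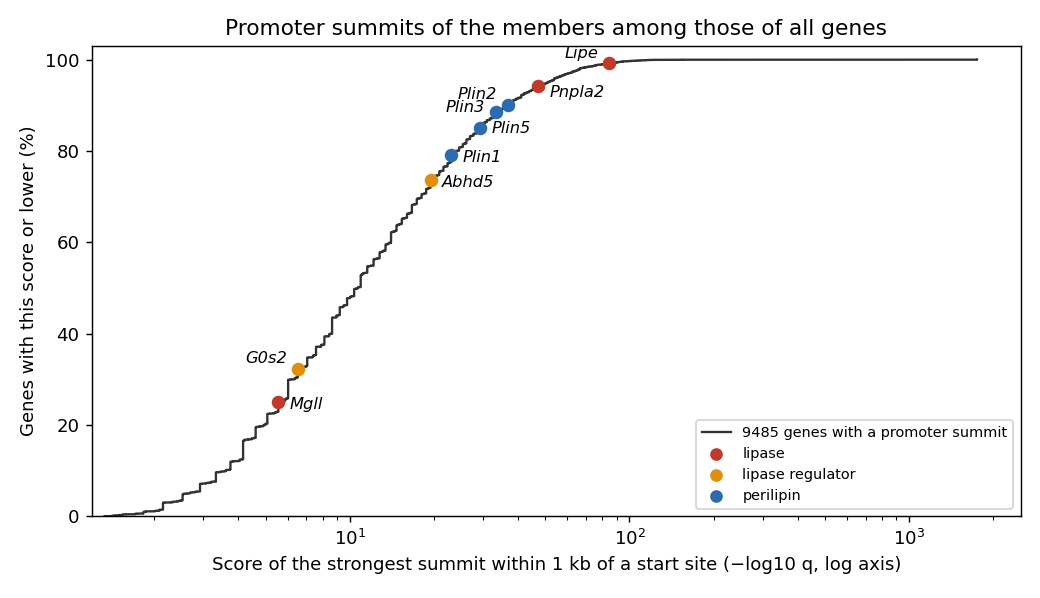
The line gives the percent of the 9485 genes with a promoter summit (vertical axis) whose strongest promoter score was at or below the score on the logarithmic horizontal axis (−log10 q), and the points are the 9 genes of lipolysis and perilipins that had one, colored by role. Lipe (84.8) and Pnpla2 (47.3) lie near the top of the line, the 4 perilipins between 23.1 and 36.7, and G0s2 (6.53) and Mgll (5.55) in its lower part.

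In promoter score the order was Lipe (84.8), Pnpla2 (47.3), Plin2 (36.7), Plin3 (33.3), Plin5 (29.3), Plin1 (23.1), Abhd5 (19.4), G0s2 (6.53) and Mgll (5.55). Pnpla2 and Plin3 leave this order with a window of 500 bp, and Pnpla2 and Abhd5 with one from 1 kb before to 100 bp after the TSS. With no spread over libraries, neighbors in this order cannot be said to differ. Their median was 29.3, whereas the median over all genes with a promoter summit was 10.7. When the own summits under the rule were counted the order was another, with Mgll (20), Plin2 (19) and Lipe (10) ahead of Plin1 (7), G0s2 (6), Plin3 (5), Abhd5 (3), Plin5 (3), Pnpla2 (2) and Plin4 (1). Without the limit of 50 kb Abhd5 had 7 and the counts of the other 9 genes were the same. Counted in that way, the median over all genes was 1.

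Gene length differs among the 10 genes and bears on how many summits a body can hold. Per kb of body, G0s2 had 0.972 summits, Plin3 0.606, Plin2 0.593, Lipe 0.547 and Plin1 0.517. Plin5 had 0.336, Mgll 0.317, Pnpla2 0.18, Plin4 0.109 and Abhd5 0.0669. All 10 were above 0.0405, the upper quartile over all genes, while the median gene had 0 body summits. In a body of up to 16.5 kb, the length of Lipe, 1 summit is enough to pass this quartile. For all but Mgll and Abhd5, whose bodies are longer, the comparison therefore restates that the body held a summit. The value for G0s2 rested on 1 summit in 1.03 kb, and those for Pnpla2 and Plin4 also on 1 summit.

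**Figure D4:**
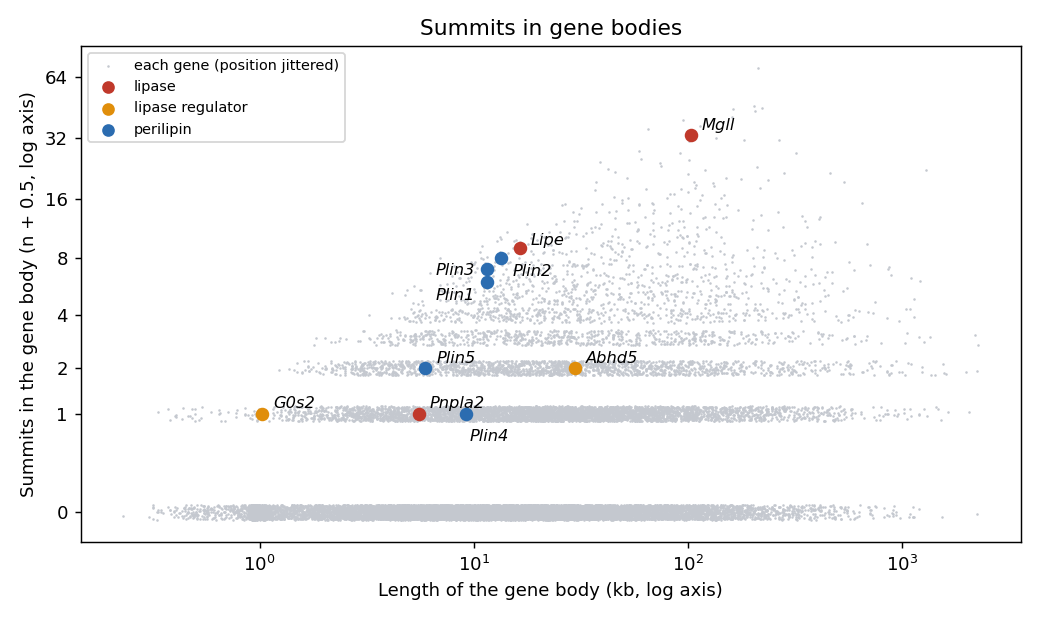
Each grey point is a gene, with the length of its body in kb on the horizontal axis and the number of summits in the body on the vertical axis, both logarithmic (0.5 was added to the counts, and grey points are shifted slightly at random), and the colored points are the 10 genes by role. Mgll (33 summits in 104 kb), Lipe (9 in 16.5 kb) and Plin2 (8 in 13.5 kb) have the most body summits of the 10, and G0s2 and Plin4 have 1 summit each.

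Short sequence patterns were searched on both strands within 100 bp of each summit, and a match describes letters, not binding. GGGCGG, the core bound by SP and KLF factors, was present at 8 of the 76 own summits (10.5%, 95% Wilson interval 5.43 to 19.4) and at 20.6% of all summits. This pattern followed distance from the TSS, with 6 of the 12 own summits within 1 kb holding it, beside 45.0% of all summits there, and 2 of the 64 farther away (3.12%), beside 9.07%. It was found at the promoter summits of Pnpla2, Lipe (the upstream TSS), Abhd5, Plin2, Plin3 and Plin5. AGGTCA, the core of many nuclear receptor sites, was present at 15 own summits (19.7%, interval 12.3 to 30.0) and at 15.2% of all. Of these 15, 3 belonged to G0s2, 3 to Lipe and 3 to Plin2. The longer TCAAGGTCA, known from sites of estrogen-related receptors and containing AGGTCA, was present at 2 own summits (2.63%, interval 0.725 to 9.1) and at 0.454% of all, and both were the weaker summits of Plin5, at +2981 and −1084 bp. TTCNNNGAA, the form of STAT5 sites, was present at 5 own summits (6.58%) and at 4.1% of all, and 4 of the 5 belonged to Plin2, including those of 21.6 and 14.0. Within 50 bp and 250 bp of summits the share of own summits was 11.8% and 31.6% for AGGTCA and 1.32% and 15.8% for TTCNNNGAA, so these shares depend on the window. Own summits of a gene share its base composition, and the intervals cover counting error alone.

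The strongest promoter summit, that of Lipe at the downstream TSS, held GTAAACA, a forkhead pattern written on the printed strand as TGTTTAC, which occurred at 1 own summit and 1.56% of all. The promoter summit of Plin1 held TTGCNNAA, the form of C/EBP sites, which was found at 6 own summits (7.89%) and 10.9% of all. The promoter summit of Mgll held the E-box CACGTG, at the very end of its window. This E-box was found at 5 own summits (6.58%) and 4.68% of all, and 3 of the 5 were own summits of Mgll. At the promoter summit of Pnpla2 GAAANNGAAA, an IRF pattern, was found, as at 3 own summits (3.95%) and 1.35% of all. The promoter summit of Plin3 held TGANTCA, the form of AP-1 sites, found at 7 own summits (9.21%) and 6.4% of all, and a short CTCF pattern, CCNCNAGNNGGC, found at 1 own summit and 2.36% of all. The strongest own summits of Mgll, Plin1 and Plin4 held none of the 18 patterns. No own summit held TGACGTCA, the full cyclic AMP response element, which 1.03% of all summits held, or AGGNCAAAGGNCA, a strict form of the PPAR and RXR site, which 0.165% held. No own summit held TCCCNNGGGA, an EBF pattern (1.33% of all), or the full NFI site (0.0528%). The remaining patterns were each at 1 own summit except GCCAAT of NFY, at 4 (5.26%, beside 8.38% of all). These were CCGGAAG of ETS factors at Mgll (5.38% of all), GCGCANGCGC of NRF1 at the promoter of Abhd5 (2.22%) and the glucocorticoid element GNACANNNTGTNC at Plin3 (0.696%).

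The other genes of lipolysis and lipid droplets were read from a list of 30. A promoter summit was present at 23 of them, and at 19 it scored at least 10, beside 45.2% and 23.5% of all genes. The strongest were at Acsl1 (90.5), which activates fatty acids, Dgat1 (65.4), which makes triglyceride, and Cidea (61.5), a droplet protein of brown fat. Of the 12 receptors and signaling genes 9 had one, with a median score of 10.9, and the 3 without were Adrb3, the main beta-adrenergic receptor of adipocytes, Hcar1 and Ptger3, which inhibit lipolysis. Of 6 other lipases 3 had one, and Ces1d, Ces1f and Abhd6 did not. Among droplet proteins 5 of 6 had one, without Fitm1, and among the genes that handle the products 6 of 6, with a median of 45.4. The scores of the 9 promoters of lipolysis and perilipin genes, 5.55 to 84.8, lay within the range of these 23, from 4.16 to 90.5.

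Promoter summits of marker genes were read for the tissue label. With one genotype as control in the peak call they would not check it, since the list would then hold a contrast between genotypes. Ucp1, the defining gene of brown adipocytes, scored 33.7, and 7 of 8 brown adipocyte markers and 4 of 4 general adipocyte markers had a promoter summit, beside 45.2% of all genes. The brown adipocyte markers ranged from 6.02 to 61.5 with a median of 9.78, and 3 of 8 reached 10, where the median over all genes with a promoter summit was 10.7. Endothelial markers had 1 of 4, macrophage and leukocyte markers 1 of 4 and fibroblast markers 2 of 3, with scores between 2.15 and 4.16, while 0 of 4 skeletal muscle markers, 0 of 2 white adipocyte markers and 0 of 3 markers from outside the tissue had one. In whole tissue, fewer cells with signal at a site and less signal per cell cannot be told apart.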

How the data were processed

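Nuclei of BAT from 2 mice of each genotype, WT and Dot1L-BKO, were used for ATAC-seq. Paired-end reads of 50 bases were aligned by the authors with BWA (Partek Flow) to the mm10 genome. They then ran MACS2 2.1.1 in ATAC mode, keeping peaks with q up to 0.05 and at least 2.0 fold enrichment. What they deposited is a position for each peak together with the −log10 of its q-value, taken here as the score. It is 1 list that names all 4 libraries, and which of them entered as treatment or control, any shift for the transposase, and the handling of multi-mapped and mitochondrial reads were not given in the sources used here. Duplicate reads and depth cannot be judged from summits. The RNA-seq libraries, 2 per genotype, were not analysed here.

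Positions were compared with RefSeq GRCm38.p6, the same build, using curated mRNAs on chromosomes 1 to 19, X and Y. A gene body was the span of these mRNAs, a promoter window reached 1 kb to each side of a TSS, and a percentile is the percent of genes with a lower value. No test was run, because the list has no values per library. Patterns were read within 100 bp of each summit, and shares have 95% Wilson intervals. The members, lists and patterns were chosen with earlier results of these data known. The genes named were the 10 members, the gene nearest to the most other summits in each window, the 3 strongest and all absent promoters of the list of other lipolysis genes, and Ucp1. The closing section also names neighbors chosen after their values were seen. The nearest TSS was tested on simulated positions and the pattern search on simulated sequences. Counts in gene bodies and under the rule were compared with a direct count on the deposited list. Python 3.11.15, numpy 2.4.6, pandas 2.3.3, pysam 0.24.0 and matplotlib 3.10.9 were used. Alternatives changed the minimum score, the window, the mRNAs, the gene assignment, the merging of summits and the width searched for patterns.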

Additional observations from a re-analysis of the deposited data

How the results depend on the processing

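With a score of at least 5, the 198 summits under the rule became 96, the 76 own summits 45 and the 70 body summits 34. With at least 10 these were 41, 19 and 16. A window of 10 kb gave 104 summits, gene bodies alone 70 and the nearest gene alone 76. Windows of 20 kb and 100 kb gave 143 and 261. A minimum of 2, merging summits within 500 bp and adding predicted mRNAs gave between 191 and 200 summits, with 9 of 10 promoters each time. Promoter windows of 500 bp, and of 1 kb before to 100 bp after the TSS, left 7 of 10 (41.4% and 35.2% of all genes), without Pnpla2 and Plin3 in the first and without Pnpla2 and Abhd5 in the second. A window of 5 kb gave 10 of 10 (50% of all genes). Plin4 was added there by a summit of 6.02 at −4535 bp, which lay in an intron of Plin5 and was nearest to Plin5. With 5 kb the promoter score of Mgll was 27.7 and that of Plin1 28.5. Of the 18 pattern shares among own summits, 10 moved outside their interval when 50 bp in place of 100 bp to each side was searched, and 6 with 250 bp. A wider window holds more matches by its construction. With 50 bp and 250 bp the share was 3.95% and 18.4% for TGANTCA (AP-1), 0% and 7.89% for GTAAACA (forkhead), 1.32% and 13.2% for CACGTG, 3.95% and 17.1% for GGGCGG, 5.26% and 18.4% for TTGCNNAA (C/EBP), 2.63% and 13.2% for GCCAAT (NFY), and 1.32% and 7.89% for GAAANNGAAA (IRF). For TCAAGGTCA it was 1.32% and 3.95%, for CCNCNAGNNGGC 0% and 6.58%, for GNACANNNTGTNC 0% and 2.63% and for CCGGAAG 0% and 1.32%.

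No paired analysis was possible because each summit has 1 score over all libraries, and this also left no way to omit a replicate. Scores take few values (81 among the 198 summits), so ranks of weak summits are tied. A score depends on depth, which was unknown, and on which libraries served as control, which was not given. With one genotype as control, the order of promoter scores would rank a contrast between genotypes.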

Other observations

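Some of the highest scores within 50 kb of the lipolysis and perilipin genes were at summits nearer to the TSS of a neighbor. The neighbors named here were chosen after their values were seen. In the shared window of Plin4 and Plin5, the promoter summit of Ubxn6, a cofactor gene of the p97 ATPase, scored 102 and ranked 54 in the list, above all own summits of the 10 genes. That summit also lay within 1 kb of the TSS of another gene, Hdgfl2. In the window of Plin3, the promoters of Kdm4b, a histone demethylase gene, Ticam1 and Fem1a scored 68.5, 37.6 and 36.7, each higher than the 33.3 of Plin3 itself. Near Plin1, a summit of 44.6 at −48370 bp from its TSS was nearest to Mesp1 and stood above the 28.5 of the strongest own summit of Plin1. Pex11a, a peroxisome gene upstream of Plin1, had a promoter score of 16.7, at a summit that also lay within 1 kb of the TSS of Wdr93. The promoter of Rplp2, a ribosomal protein gene, scored 30.9 at −7656 bp from the TSS of Pnpla2. Hsd11b1, which regenerates active glucocorticoid, scored 23.1 at its promoter, higher than the 8.12 of the strongest own summit of G0s2.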
